A study of Homo sapiens with 9 samples.

Results

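A group of 6 human genes of DNA mismatch repair were followed through treatment of HEYA8 cells with sunitinib or compound 32: MSH6, MSH3, PMS2, MLH3, PMS1 and EXO1. They were chosen by name, with earlier results of these data known. All 6 of 6 were found among the 58735 genes of the deposited count table. HEYA8 is an established human ovarian cancer cell line, labelled as wild type and as high-grade serous. The cells received DMSO, the solvent control, or sunitinib, an inhibitor of receptor tyrosine kinases, or compound 32, with 24 hours of exposure in every group and 3 libraries per group. The 9 libraries carry the same day in the labels, and polyadenylated RNA was sequenced. The sources used here give no doses and do not say how compound 32 relates to sunitinib, so the compounds were compared as dosed. The sunitinib and DMSO samples are described as biological replicates. For the compound 32 samples this is not stated, so the spread within that group may be technical only. The edgeR tests of all libraries used 1 shared estimate of spread per gene. The sunitinib libraries therefore also enter the p-values of compound 32 against DMSO. All results come from 1 cell line.

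Mismatch repair removes bases that the replicative polymerases paired wrongly and small loops left by slippage in repeats. A MutS heterodimer recognises the error, a MutL heterodimer is recruited and its endonuclease nicks the new strand, an exonuclease removes the stretch, and polymerase delta with its clamp fills the gap. MSH6 is the subunit of the dimer that recognises single mispairs and short loops, and MSH3 is the subunit of the dimer that recognises larger loops. PMS2 carries the endonuclease of the main MutL dimer. MLH3 carries the endonuclease of a dimer best known from meiosis, and PMS1 forms a MutL dimer without an endonuclease of its own. EXO1 is the 5′ to 3′ exonuclease of the pathway and also resects DNA ends in recombination. The constitutive partners of these subunits are not analysed here.

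The starts of MSH6, EXO1 and PMS2 held a short word of the E2F consensus, the site of the factors that drive genes of the G1 to S transition, and these sites are shown because the members differed in response. Windows from 250 bases before to 50 bases after each RefSeq start (GRCh38.p14) of every member except MSH3 were searched on both strands for TTTGGCGC, TTTCGCGC, TTTCCCGC and TTTGCCGC. Capitals mark the word, positions count from the start, and each sequence is written 5′ to 3′ on the strand of its gene.
MSH6 (chr2:47783138-47783165, plus strand, word from base 4 after the start, in exonic sequence of MSH6): tccccccagaTTTCCCGCcagcaggagc
EXO1 (chr1:241848198-241848225, plus strand, word from base 5 after the start, in exonic sequence of EXO1): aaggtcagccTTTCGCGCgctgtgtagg
PMS2 (chr7:6009132-6009159, minus strand, word from base -43 of one start and -100 of the other, outside annotated exons): gggaagtattTTTGCCGCcccgcccgga
Of 35116 windows of this length in the RefSeq table, 3.31% held at least 1 of the words, and the shares of the single words were 0.652% for TTTGGCGC, 0.515% for TTTCGCGC, 1.63% for TTTCCCGC and 0.607% for TTTGCCGC. The site lay in 1 of 4 windows of MSH6, 1 of 2 of EXO1 and both of PMS2. The single windows of MLH3 and PMS1 held none of these letters. A match is a description of the sequence. The genes with these sites did not share a direction: MSH6 and EXO1 fell under sunitinib and PMS2 rose, with values given below for each.

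Library totals ran from 15498101 to 18006171 counts. Sunitinib replicate 3 stood apart from its group: 5.36% of its counts were mitochondrial and 7.58% were in ribosomal protein genes, against 3.42% to 3.92% and 4.14% to 5% in the other 8 libraries. Levels are given in CPM, which are counts scaled to a common library size with TMM factors. Of the 6 markers of serous carcinoma, PAX8 was present at 114 to 136 CPM. WT1 was at 10.9 to 13.1 CPM under DMSO, 4.71 to 5.46 under sunitinib and 9.44 to 11.4 under compound 32. WT1 fell by 1.27 ± 0.13 on the log2 scale under sunitinib (edgeR adjusted p = 1.9e-05), and PAX8 was not called. No tested serous marker was called under compound 32 against DMSO. MSLN was at 0.496 to 1.02 CPM, and MUC16, ESR1 and FOLR1 were below 1 CPM in every library. The 6 epithelial markers summed to 1097 to 1177 CPM under DMSO, 1165 to 1257 under sunitinib and 1325 to 1439 under compound 32. The keratins KRT7, KRT8 and KRT18 were present, and the cadherin CDH1 was below 1 CPM in all 9 libraries. EPCAM, at 0.814 to 2.54 CPM, and KRT19, at 0.159 to 1.43 CPM, were also low. KRT7 rose by 1.63 ± 0.07 on the log2 scale under sunitinib (edgeR adjusted p = 5.61e-08), and KRT8 and KRT18 rose by 0.31 ± 0.06 and 0.29 ± 0.09 under compound 32 (edgeR adjusted p = 0.00493 and 0.032). The 4 mesenchymal markers summed to 4183 to 5201 CPM over all libraries. Most of that sum was VIM, at 3289 to 4527 CPM, highest in sunitinib replicate 3. ZEB1 fell by 0.33 ± 0.07 on the log2 scale under sunitinib (edgeR adjusted p = 0.00208), and the other 3 were not called. Under compound 32 against DMSO, 1 of the 4 was called lower and 0 higher. The 8 markers of other cell types summed to 8.76 to 11.1 CPM under DMSO, 16.2 to 17.6 under sunitinib and 8.28 to 8.85 under compound 32, with the blood, macrophage and muscle markers PTPRC, CD3E, CD68 and DES below 1 CPM throughout. That sum moved with sunitinib mainly through CDH5, an endothelial cadherin, at 15.3, 14.6 and 11.4 CPM in the sunitinib libraries. In sunitinib replicate 3 the liver marker ALB also entered, at 2.54 CPM against at most 0.159 CPM in any other library. Under compound 32 against DMSO, 1 of these 8 markers was called higher and 1 lower. Mean CDH5 was 4.10 CPM under compound 32 against 7.37 under DMSO, and mean COL1A1 was 2.91 against 1.54. The part of these marker changes in the results below was not tested. Less of a transcript per cell and fewer cells in which it is made cannot be told apart in these bulk samples.

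The 2 MutS subunits parted under both compounds. MSH6 (ENSG00000116062, chr2:47695530-47810101, plus strand, hg38) was measured at 121, 118 and 119.6 CPM in the DMSO libraries, at 44.4, 45.1 and 44.0 CPM under sunitinib, and at 140.4, 139 and 135 CPM under compound 32. No library of one treatment reached into the range of another, and sunitinib replicate 3 was level with its group. MSH6 fell 2.68-fold under sunitinib, a log2 change of -1.42 ± 0.06 (SE, n = 3 per group, edgeR adjusted p = 2.86e-08), and kept this call in 19 of 19 alternative analyses. Under compound 32 MSH6 rose by 0.21 ± 0.06 on the log2 scale (edgeR adjusted p = 0.0189). That small rise was called in 12 of 19 alternatives, with log2 changes of 0.195 to 0.226 and edgeR, limma or DESeq2 adjusted p of 5.35e-05 to 0.112. In 5 of the 9 fits that left out 1 library it was not called, and all 5 left out a library of this comparison. Of the DMSO and compound 32 libraries, only compound 32 replicate 3 could be left out with the call kept. Between the compounds MSH6 differed 3.11-fold, 1.64 ± 0.06 on the log2 scale, with compound 32 higher (edgeR adjusted p = 3.43e-09).

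MSH3 (ENSG00000113318, chr5:80654648-80876460, plus strand) was measured at 26.3, 25.0 and 23.3 CPM under DMSO, at 22.9, 23.0 and 23.2 CPM under sunitinib, and at 20.3, 21.8 and 20.8 CPM under compound 32. The groups were close together without touching, and the DMSO libraries spread the most. Its log2 change under sunitinib was -0.11 ± 0.08, with a 95% interval of -0.29 to 0.06 (edgeR adjusted p = 0.288). Under compound 32 MSH3 fell by 0.25 ± 0.08 (edgeR adjusted p = 0.0477). This call was at the edge of the threshold and held in 6 of 19 alternatives, with adjusted p between 0.0124 and 0.16. Among the 9 fits without 1 library it was made only without sunitinib replicate 3, where MSH3 was at -0.24 (edgeR adjusted p = 0.0124). The compounds themselves differed in MSH3 by -0.13 ± 0.08, an interval of the difference that includes 0 (edgeR adjusted p = 0.187).

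**Figure D1:**
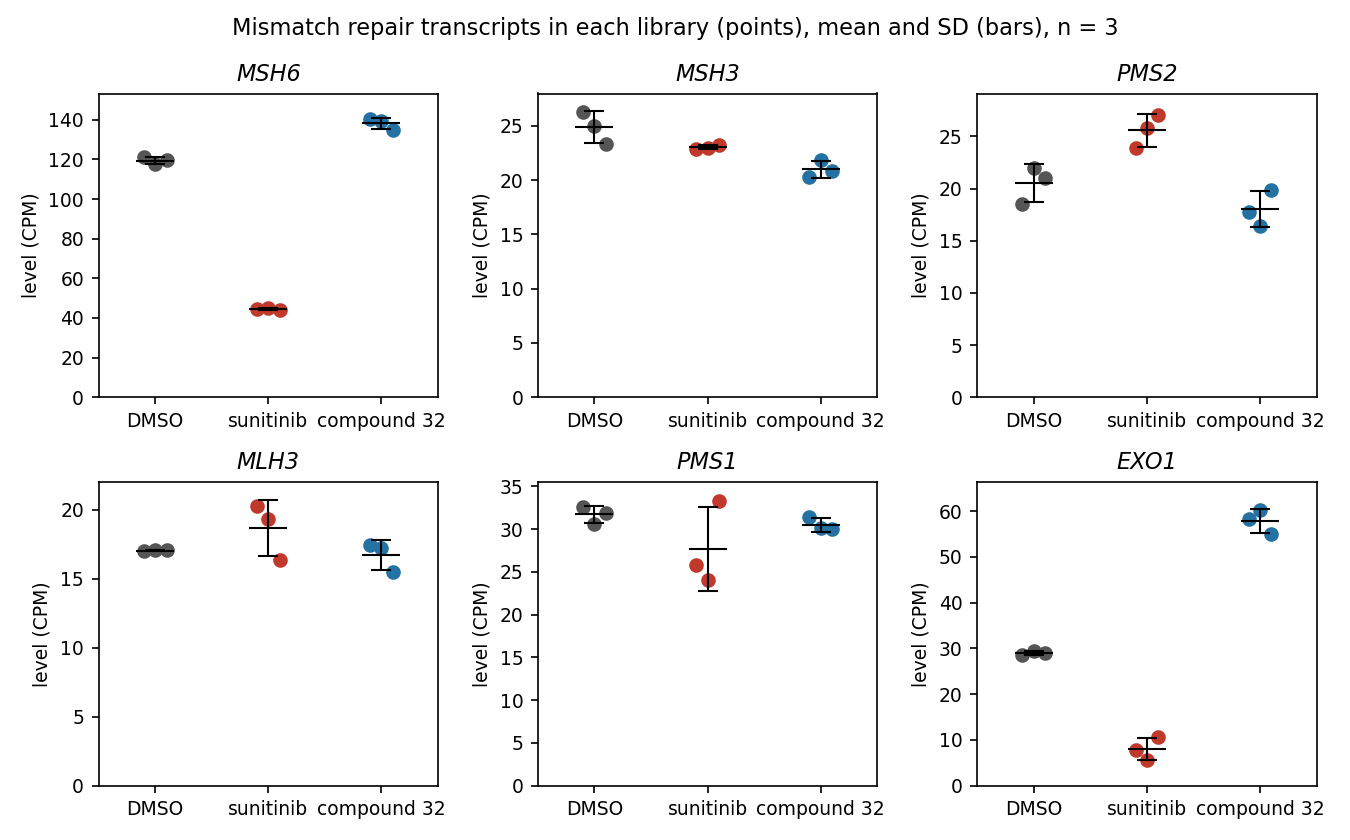
Levels of the 6 mismatch repair genes in CPM (vertical axes from 0, a separate scale for each gene) in the DMSO, sunitinib and compound 32 libraries. Points are single libraries, horizontal lines are means and bars are SD of 3 libraries; MSH6 and EXO1 are low under sunitinib and high under compound 32, PMS2 is highest under sunitinib, and the highest PMS1 point under sunitinib, at 33.3 CPM, is replicate 3.

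MSH6 shares exonic bases with a gene on the other strand. The sources used here do not say whether strand was used in counting, and without strand the count of any member can include reads from the opposite strand. In GENCODE release 29, 1785 of the 10993 exonic bases of MSH6 (16.2%) also lie in exons of FBXO11, a ubiquitin ligase subunit. FBXO11 was measured at 41.2, 37.5 and 43.0 CPM under DMSO, 37.4, 38.4 and 33.7 CPM under sunitinib, and 43.0, 40.8 and 43.2 CPM under compound 32, with sunitinib overlapping DMSO and below compound 32. Its log2 changes were -0.15 ± 0.08 under sunitinib (edgeR adjusted p = 0.157) and 0.06 ± 0.08 under compound 32 (edgeR adjusted p = 0.638), and neither was called. FBXO11 differed by 0.21 ± 0.08 between the compounds, higher under compound 32 (edgeR adjusted p = 0.0447), a call made in 7 of 19 alternatives. The mean level of MSH6 fell by 74.9 CPM under sunitinib, beside an FBXO11 level of at most 43.2 CPM in any library. That FBXO11 level sets no limit on reads from the shared bases, because the strand setting is not known. How much the shared bases add to the MSH6 count was not tested.

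Among the MutL subunits PMS2 was the one called. PMS2 (ENSG00000122512, chr7:5973239-6009125, minus strand) was measured at 18.5, 22.0 and 21.0 CPM under DMSO, 23.9, 25.9 and 27.0 CPM under sunitinib, and 17.8, 16.5 and 19.8 CPM under compound 32. All sunitinib libraries lay above all others, and DMSO and compound 32 overlapped. PMS2 rose by 0.32 ± 0.10 on the log2 scale under sunitinib (edgeR adjusted p = 0.0263), was called in 14 of 19 alternatives (adjusted p 0.00838 to 0.121), and was not called without DMSO replicate 1, DMSO replicate 3 or sunitinib replicate 2. Under compound 32 its log2 change was -0.19 ± 0.10 (edgeR adjusted p = 0.232). The direct comparison was firmer: PMS2 was lower by -0.50 ± 0.10 under compound 32 than under sunitinib (edgeR adjusted p = 0.00164), in 19 of 19 alternatives.

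PMS2 has near-identical copies on the same chromosome, and its count is uncertain because the sources used here do not say how multiply mapped reads were treated. Of 11 other genes whose symbol begins with PMS2, 4 had enough counts to be tested. PMS2P1 was measured at 4.15, 4.68 and 4.63 CPM under DMSO and 6.46, 5.33 and 7.15 CPM under sunitinib, where it rose by 0.49 ± 0.16 (edgeR adjusted p = 0.0282). Between the compounds PMS2P1 was lower under compound 32, by -0.55 ± 0.16 (edgeR adjusted p = 0.0131). PMS2P1 thus moved in the direction of PMS2 in both comparisons in which PMS2 was called, and its part in the PMS2 result was not tested. PMS2CL, PMS2P3 and PMS2P4 were not called in any of the 3 comparisons. AIMP2, a scaffold of the tRNA synthetase complex that starts beside PMS2 on the other strand and shares no exonic base with it, was at -0.09 ± 0.09 under sunitinib (edgeR adjusted p = 0.454) and fell by 0.49 ± 0.09 under compound 32 (edgeR adjusted p = 0.00321).

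MLH3 (ENSG00000119684, chr14:75013764-75051532, minus strand) was measured at 17.0, 17.1 and 17.0 CPM under DMSO, 20.3, 19.3 and 16.4 CPM under sunitinib, and 17.5, 17.2 and 15.5 CPM under compound 32. The DMSO libraries were nearly equal, and the lowest library of the sunitinib group was replicate 3. Log2 changes were 0.13 ± 0.10 under sunitinib (95% interval -0.09 to 0.35, edgeR adjusted p = 0.314) and -0.03 ± 0.10 under compound 32 (edgeR adjusted p = 0.88). Without sunitinib replicate 3, MLH3 was lower under compound 32 than under sunitinib (-0.24, edgeR adjusted p = 0.0305), a difference of -0.16 ± 0.10 with all libraries (edgeR adjusted p = 0.202).

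PMS1 (ENSG00000064933, chr2:189784085-189877629, plus strand) was measured at 32.6, 30.6 and 31.9 CPM under DMSO, 25.8, 24.0 and 33.3 CPM under sunitinib, and 31.4, 30.1 and 30.0 CPM under compound 32. Sunitinib replicate 3 was the highest of all 9 libraries, and the other sunitinib libraries were the lowest. With all libraries the log2 change under sunitinib was -0.20 ± 0.11 (95% interval -0.44 to 0.04, edgeR adjusted p = 0.175). Without sunitinib replicate 3, PMS1 was called lower at -0.35 (edgeR adjusted p = 0.000258), so that library alone decided the call. PMS1 was then also higher under compound 32 than under sunitinib (0.29, edgeR adjusted p = 0.00159), against 0.14 ± 0.11 with all libraries (edgeR adjusted p = 0.31). Under compound 32 PMS1 was at -0.06 ± 0.11 (edgeR adjusted p = 0.766). ORMDL1, a regulator of sphingolipid synthesis that shares 103 exonic bases with PMS1 (1.9% of its length), was likewise highest in sunitinib replicate 3, at 73.3 CPM against 54.1 and 46.2 CPM in the other sunitinib libraries. ORMDL1 was not called in any comparison with all libraries. Without sunitinib replicate 3 ORMDL1 was called higher under compound 32 than under sunitinib (0.18, edgeR adjusted p = 0.0205), as PMS1 was, and higher under compound 32 than under DMSO (0.15, edgeR adjusted p = 0.0451).

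EXO1 moved the most of the 6 genes under each compound. EXO1 (ENSG00000174371, chr1:241847967-241895148, plus strand) was measured at 28.6, 29.5 and 28.9 CPM under DMSO, 7.83, 5.64 and 10.5 CPM under sunitinib, and 58.2, 60.2 and 55.0 CPM under compound 32. The 3 groups were far apart, and sunitinib replicate 3 was the nearest of its group to DMSO. EXO1 fell 3.63-fold under sunitinib, a log2 change of -1.86 ± 0.16 (edgeR adjusted p = 4.62e-06). EXO1 rose 1.99-fold under compound 32, a log2 change of 0.99 ± 0.14 (edgeR adjusted p = 0.000448). Between the compounds EXO1 differed 7.24-fold (2.86 ± 0.16 on the log2 scale, edgeR adjusted p = 8.23e-08). All 3 calls were made in 19 of 19 alternatives, with log2 changes of -2.09 to -1.67 under sunitinib and 0.96 to 1.03 under compound 32.

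**Figure D2:**
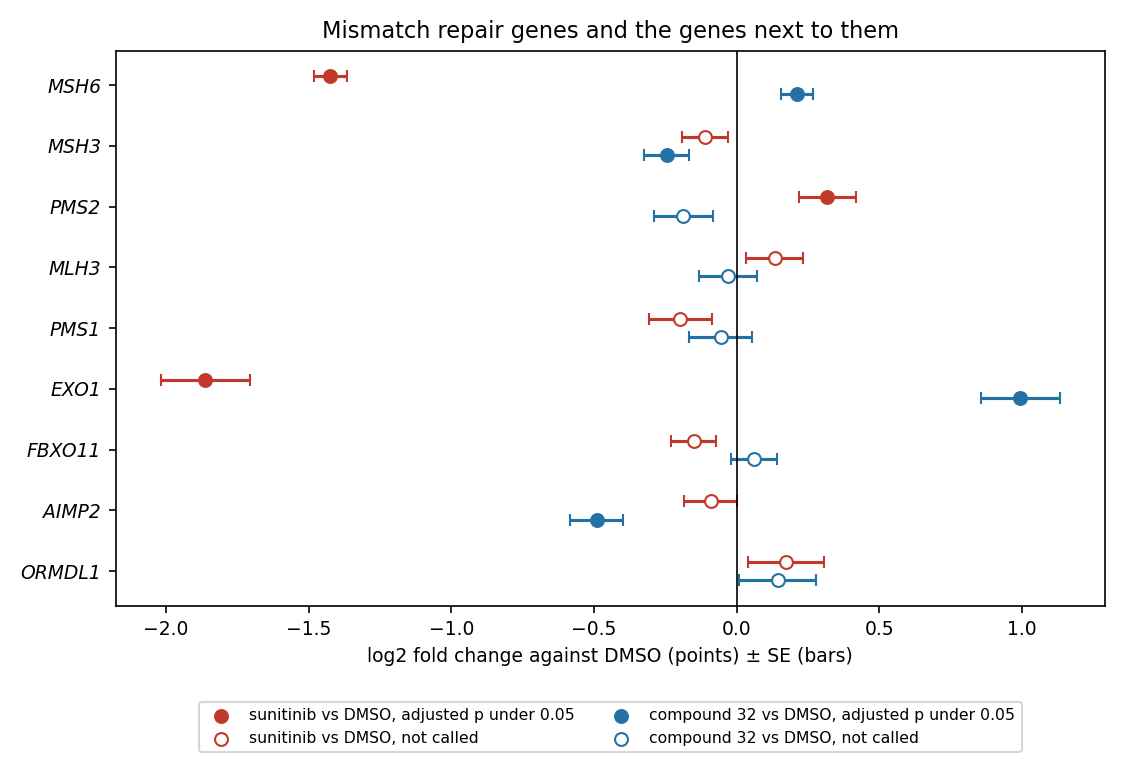
Log2 fold changes against DMSO (horizontal axis; points, with bars of 1 SE) of the 6 mismatch repair genes and 3 genes that overlap them or start beside them, for sunitinib and compound 32. Filled points passed an edgeR adjusted p under 0.05; MSH6 lies at -1.42 while FBXO11 lies at -0.15, and PMS2 lies at 0.32 while AIMP2 lies at -0.09.

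Under sunitinib 2 of the 6 genes were lower (MSH6 and EXO1), against 19.9% of all 15232 genes tested, and 1 was higher (PMS2), against 20.3%. Under compound 32, 2 were higher (MSH6 and EXO1), against 12.0% of all genes, and 1 was lower (MSH3), against 10.3%. Between the compounds 2 were higher under compound 32 (MSH6 and EXO1), against 24.1%, and 1 was lower (PMS2), against 25.2%. With 6 genes these counts are too small to set the group apart from the background. The 6 genes did not share a direction, and their median log2 change was -0.15 under sunitinib and -0.04 under compound 32, beside medians of 0.02 and -0.000266 over all genes tested. MSH6 and EXO1 were called in opposite directions under the 2 compounds, both measured against the same DMSO libraries.

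The order of the 6 transcripts, per kilobase of exonic gene length, was rearranged by sunitinib. In DMSO the mean level per kilobase was highest for MSH6 (10.9 CPM per kb), then EXO1 (7.01), PMS1 (5.82), MSH3 (5.28), PMS2 (5.21) and MLH3 (2.04). MSH3 and PMS2 overlapped between libraries, and the other neighbours in that order did not. Under sunitinib PMS2 came first (6.51 CPM per kb), followed by PMS1 (5.08) and MSH3 (4.89), each overlapping the next, then MSH6 (4.05), and MLH3 (2.23) and EXO1 (1.93) overlapped at the bottom. Under compound 32 EXO1 (14.0 CPM per kb) stood above MSH6 (12.6), with PMS1 at 5.59, PMS2 at 4.58, MSH3 at 4.46 and MLH3 at 2.00, and here PMS2 and MSH3 overlapped. The order depends on the length used. Per kilobase of 1 principal transcript, MSH6 came first under compound 32 (18.5 against 16.7 for EXO1). In DMSO PMS1 then preceded EXO1 (9.84 against 8.35) and PMS2 preceded MSH3 (7.18 against 6.08). Under sunitinib PMS2 stayed first (8.97), but MSH6 stood above MSH3 (5.95 against 5.63) without overlap. The place of MSH6 below MSH3 under sunitinib thus held only for exonic gene length.

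Ratios of 2 counts within a library need no scaling between libraries. The MSH6 to MSH3 ratio of counts was 4.60, 4.70 and 5.12 under DMSO, 1.94, 1.96 and 1.89 under sunitinib, and 6.90, 6.37 and 6.48 under compound 32. No groups overlapped, and the ratio of the single-mispair subunit to the loop subunit was lowest under sunitinib in every library. The mean log2 ratio differed from DMSO by -1.31 under sunitinib and 0.46 under compound 32. Each gave the smallest p that 3 against 3 libraries allow in a two-sided exact permutation test (p = 0.1, adjusted p = 0.18 over 9 tests), so this test cannot reach 0.05 at that size.

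The PMS2 to PMS1 ratio of counts was 0.567, 0.718 and 0.660 under DMSO, 0.926, 1.08 and 0.813 under sunitinib, and 0.566, 0.547 and 0.662 under compound 32. Sunitinib libraries lay above all others, and DMSO and compound 32 overlapped. The log2 difference was 0.53 for sunitinib against DMSO (exact permutation p = 0.1, adjusted p = 0.18) and -0.13 for compound 32 (exact permutation p = 0.4, adjusted p = 0.4). The ratio of the 2 endonuclease subunits, PMS2 to MLH3, overlapped between all groups (exact permutation p from 0.2 to 0.4). Its arithmetic means were 1.20 under DMSO, 1.39 under sunitinib and 1.09 under compound 32.

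**Figure D3:**
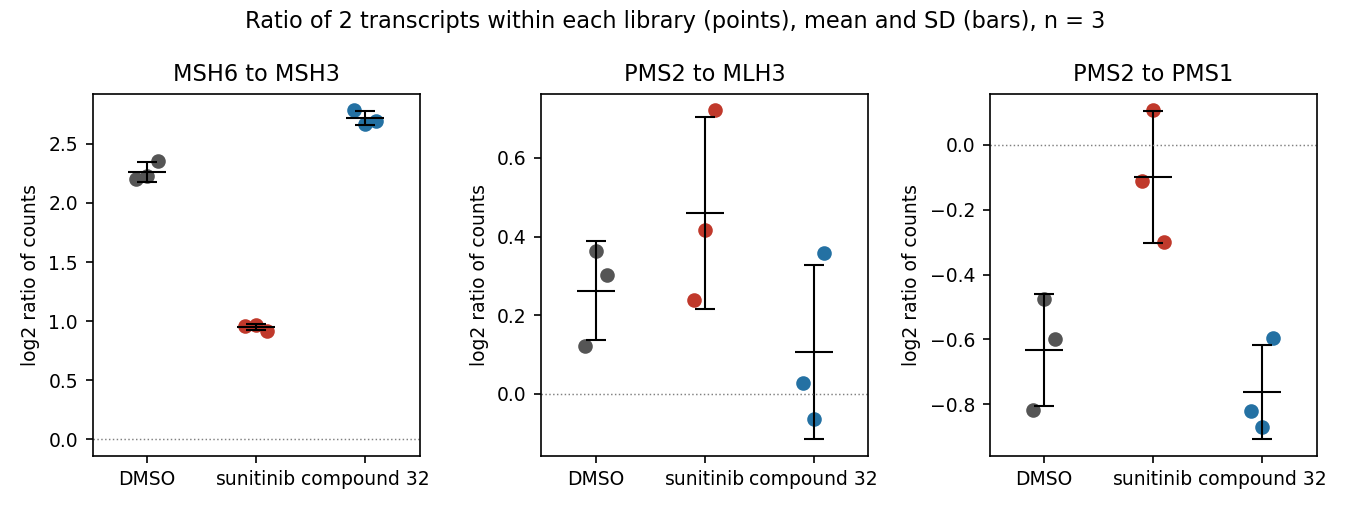
Log2 ratios of counts (vertical axes, which do not start at 0; the dotted line marks equal counts) of MSH6 to MSH3, PMS2 to MLH3 and PMS2 to PMS1 in each library, with means and SD of 3 libraries. The sunitinib libraries lie below the others for MSH6 to MSH3, at 0.95 on average against 2.26 for DMSO, and above the others for PMS2 to PMS1.

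Most genes of the machinery that follows recognition were lower under sunitinib, and a less stable number were higher under compound 32. Their list was chosen with earlier results of these data known, so its counts are not independent support. The list held PCNA, the sliding clamp, the clamp loader genes RFC1 to RFC5, the single-strand binding genes RPA1 to RPA3, the polymerase delta genes POLD1 to POLD4, the ligase LIG1, and HMGB1, a chromatin protein that can assist excision. Of these 15 genes, all tested, 11 fell under sunitinib (19.9% of all genes tested did), 1 rose (20.3%) and 3 were not called, with a median log2 change of -0.59. Under compound 32, 9 rose (12.0% of all genes did), 0 fell (10.3%) and 6 were not called, with a median of 0.26. That count of 9 was 4 without DMSO replicate 3 or compound 32 replicate 2, 5 without DMSO replicate 1 or compound 32 replicate 1, 6 without DMSO replicate 2 or compound 32 replicate 3, and 10 without sunitinib replicate 3, while the median stayed between 0.25 and 0.27. In the direct comparison 11 were higher (24.1% of all genes) and 1 lower (25.2%) under compound 32, with a median of 0.84. Most of these 15 genes also serve DNA replication, so their changes are not particular to mismatch repair. A list of S phase entry genes, given below, moved further, with medians of -1.40, 0.50 and 1.91 in the same 3 comparisons.

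PCNA was measured at 136, 135 and 139 CPM under DMSO, 43.3, 43.7 and 61.8 CPM under sunitinib, and 221, 238 and 242 CPM under compound 32. Its groups did not overlap, in the same order as those of EXO1. PCNA fell by 1.46 ± 0.12 under sunitinib (edgeR adjusted p = 3.24e-06) and rose by 0.77 ± 0.11 under compound 32 (edgeR adjusted p = 0.000639). Among the clamp loader genes RFC3 fell by 1.35 ± 0.08 and RFC1 by 0.31 ± 0.06 under sunitinib, the ends of their range. Under compound 32 the 5 clamp loader genes lay between 0.23 and 0.38, and 4 were called, RFC1, RFC2, RFC3 and RFC5, in 11 to 14 of 19 alternatives. RFC4, at 0.24, was called in 2 of 19, 1 of them the fit without sunitinib replicate 3 (edgeR adjusted p = 7.53e-05). LIG1, which seals the repaired strand, fell by 0.89 ± 0.08 under sunitinib and rose by 0.54 ± 0.07 under compound 32.

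Polymerase delta did not move as a unit. Its catalytic subunit POLD1 fell by 0.88 ± 0.11 under sunitinib and was at -0.02 ± 0.11 under compound 32, and POLD3 fell by 0.99 ± 0.08 and rose by 0.44 ± 0.07. POLD2 was not called under either compound. POLD4, the small accessory subunit, was measured at 3.96, 3.90 and 3.15 CPM under DMSO and 8.47, 9.67 and 6.57 CPM under sunitinib. POLD4 rose by 1.17 ± 0.22 (edgeR adjusted p = 0.0016), the opposite of POLD1 and POLD3, at the lowest counts of the list.

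RPA3 and HMGB1 were decided by sunitinib replicate 3. RPA3 was at 24.2, 26.0 and 45.3 CPM and HMGB1 at 361, 364 and 620.1 CPM under sunitinib, against 27.9 to 30.8 and 529 to 562 CPM under DMSO. In both genes the first 2 sunitinib libraries lay below DMSO and replicate 3 above it. Without that library 13 of the 15 genes were lower under sunitinib and 1 higher, RPA3 and HMGB1 being added, and the median was -0.73. RPA3 was then at -0.24 (edgeR adjusted p = 0.014), against 0.11 ± 0.19 with all libraries.

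**Figure D4:**
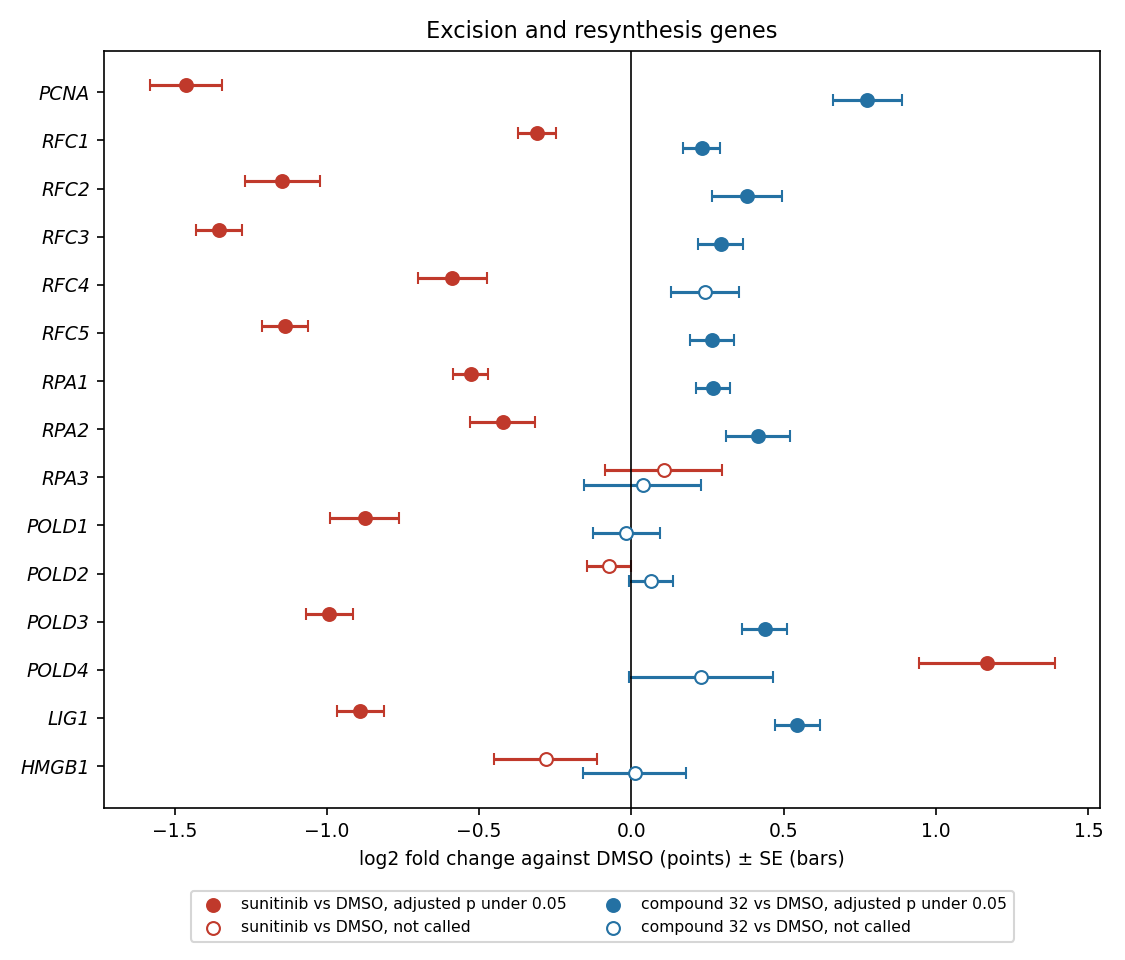
Log2 fold changes against DMSO (horizontal axis; points, with bars of 1 SE) of the 15 genes of excision and resynthesis for sunitinib and compound 32. Filled points passed an edgeR adjusted p under 0.05; 11 sunitinib points are filled to the left of 0, POLD4 is filled at 1.17, and 9 compound 32 points are filled to the right of 0.

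Among 4 accessory genes, MCM8, a helicase of recombination that is homologous to the replicative MCM genes, fell by 0.90 ± 0.08 under sunitinib (edgeR adjusted p = 5.11e-06) and rose by 0.45 ± 0.07 under compound 32 (edgeR adjusted p = 0.00136). SETD2, the histone methyltransferase whose mark is bound by MSH6, fell under both compounds, by 0.40 ± 0.08 and 0.31 ± 0.08 (edgeR adjusted p = 0.00157 and 0.0138). MCM9 and the nuclease gene FAN1 were not called in any of the 3 comparisons. Of the meiotic MutS genes, MSH5 was tested at 1.56 to 3.84 CPM and was not called, and MSH4 did not pass the count filter.

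Other genes of DNA replication were called in the same directions as MSH6 and EXO1. A reference list of 19 genes of S phase entry, which includes MCM2 to MCM7, was likewise chosen with earlier results of these data known. All 19 fell under sunitinib (19.9% of all genes tested did) with a median log2 change of -1.40. Under compound 32, 15 of the 19 rose (12.0% of all genes did) and 0 fell, with a median of 0.50. That count of 15 was 19 with only the 6 libraries compared or without sunitinib replicate 3. It was 12 without DMSO replicate 1 or compound 32 replicate 3. All 19 were higher under compound 32 than under sunitinib (24.1% of all genes were), with a median of 1.91. MSH6 at -1.42 lay near the middle of that list under sunitinib, and MSH3, PMS2, MLH3 and PMS1 lay between -0.20 and 0.32. How far a change in the share of replicating cells enters these values was not tested.

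The transcripts whose profiles were most like those of the members were found by the Euclidean distance between centred log2 CPM values over the 9 libraries, among 10165 other protein-coding genes. Nearest to MSH6 were SHCBP1 (distance 0.08), MCM3 (0.20) and MCM6 (0.21), with log2 changes under sunitinib of -1.40, -1.49 and -1.29. Nearest to EXO1 were RRM2, the small subunit of ribonucleotide reductase (distance 0.51), ORC1 of the origin recognition complex (0.64) and ATAD2 (0.68). These distances were larger than that of SHCBP1 to MSH6. The distance grows with the size of a change and with the spread of low counts, and RRM2 had a Pearson correlation of 0.993 with EXO1. The other members had flatter neighbours: SEC23A, ACAD9 and SFSWAP for MSH3, TSTA3, PSMB8 and ISCA2 for PMS2, MBD1, KLF3 and UBFD1 for MLH3, and SPCS2, HMGN2 and KTN1 for PMS1. Their distances ran from 0.09 to 0.18, and a flat profile has many near neighbours by this measure.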

How the data were processed

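The authors deposited whole-number counts of reads per gene for 9 libraries. Per the submitters' processing notes, fastp, HISAT2 2.0.5, featureCounts, DESeq2 and edgeR were used, with no role given for each, and a mouse build is listed beside hg38. Gene identifiers and coordinates in the table are those of GENCODE release 29. The sources used here do not state the strand setting or the treatment of multiply mapped reads. The members and gene lists were chosen with earlier results of these data known.

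Genes were kept by filterByExpr with treatment as the group (15232 genes; 26930 had no count) and scaled by TMM factors (0.983 to 1.051). A group-means model over all 9 libraries was tested with the robust quasi-likelihood F test of edgeR 4.0.16 in R 4.3.3; calls required an adjusted p under 0.05 (Benjamini-Hochberg, over all genes tested). The procedure was tested on simulated data without an outlying library, so that test does not cover a library such as sunitinib replicate 3. CPM are these counts scaled with the same factors; ± is SE for log2 changes. Ratios used counts plus 0.5. Alternatives were other scalings and filters, limma 3.58.1 voom, DESeq2 1.42.0, only the 6 libraries compared, a replicate block, a threshold of 0.01, and each library left out.

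Genes named were the 6 members, genes overlapping them or starting within 1000 bases (1 item is not reported here), the excision and resynthesis, accessory and meiotic lists, copies of PMS2, and the 3 most similar protein-coding genes per member with a mean of at least 5 CPM. Where a sum, marker or library was singled out, it was chosen after its values were seen. Library totals of 15498101 to 18006171 counts set the precision. Among the members EXO1 under sunitinib rests on the fewest reads, 91 to 162 per library.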

Additional observations from a re-analysis of the deposited data

How the results depend on the processing

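The lower calls of MSH6 and EXO1 under sunitinib, the rise of EXO1 under compound 32, and the differences of MSH6, EXO1 and PMS2 between the compounds kept their direction and side of the threshold in 19 of 19 alternatives. Over the 6 genes and 3 comparisons, 312 alternative values kept both, 25 no longer passed, 4 newly passed and 1 changed sign. The number of members higher under sunitinib was 0 without a count filter and at an adjusted p under 0.01, and 0 to 1 when single libraries were left out. The number lower under compound 32 was 0 with RLE factors, without a count filter, with DESeq2, at 0.01 and with the replicate block, and 0 to 1 without single libraries. The number higher under compound 32 was 1 without a count filter and at 0.01, and 1 to 2 without single libraries. The number lower under compound 32 than under sunitinib was 2 with upper-quartile factors, MSH3 being added, and 1 to 2 without single libraries. Over all genes, calls under sunitinib numbered 3948 at 0.01. Calls under compound 32 numbered 3401 in all libraries, 1715 at 0.01, 6372 with only the 6 libraries compared, and 2136 to 6548 without single libraries, the highest being without sunitinib replicate 3. The cause was not tested.

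Upper-quartile factors moved the median of all genes under sunitinib to 0.105 and the calls to 3952 higher and 2316 lower, against 3090 and 3036. The calls of the 6 members under sunitinib stayed the same genes, MSH6 and EXO1 lower and PMS2 higher. With these factors POLD2 under sunitinib was at 0.00883, and without a count filter ORMDL1 between the compounds was at 0.00121. Sign also changed in values that were not called with all libraries, when single libraries were left out. Without sunitinib replicate 3 some of these passed the threshold with the new sign: RPA3 under sunitinib, and RPA3 and ORMDL1 between the compounds (edgeR adjusted p = 0.014, 0.0035 and 0.0205). Under sunitinib the ranges were -0.0303 to 0.305 for ORMDL1, -0.237 to 0.268 for RPA3 and -0.00827 to 0.219 for MCM9. Under compound 32 they were -0.0132 to 0.0276 for HMGB1, -0.06 to 0.00503 for POLD1, -0.00651 to 0.0687 for RPA3, -0.0647 to 0.0218 for MLH3 and -0.071 to 0.387 for POLD4. Between the compounds they were -0.166 to 0.176 for ORMDL1, -0.237 to 0.276 for RPA3 and -0.136 to 0.101 for FAN1.

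Same-numbered samples did not deviate together: of 9 such pairs 0 had a correlation over 0.1 (-0.0769 to 0.0609), and 2 of 9 libraries correlated best with their own number. With the replicate block, calls numbered 5758 under sunitinib, 2878 under compound 32 and 7174 between the compounds, and MSH3 under compound 32 was the one member call lost.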
